A study of Mus musculus with 9 samples.

Results

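The comparison set a tumour-bearing mouse bladder treated with 17 mM alpha1-oleate against one treated with 8.5 mM, to see what a doubling of the dose still changed. The 2 arrays were chosen by their titles, out of 9 bladder arrays in all, and both came from experiment 1, so each difference is 1 array against 1 array. All mice were female C57BL/6J. Tumour bladders had first been coated with poly-L-lysine and then received MB49 cells, a mouse bladder carcinoma line, on day 0. Alpha1-oleate was instilled into the bladder 5 times, every other day from day 3 to day 11, and sham-treated tumour mice were given PBS by the same route. Tumour bladders were collected on day 12. Experiment 1 held 5 arrays: a healthy PBS bladder, a sham tumour bladder, and tumour bladders at 1.7, 8.5 and 17 mM. Experiment 2 held 4: a healthy PBS bladder, a sham tumour bladder, and 2 bladders labelled as healthy and sampled 7 d or 24 h after 17 mM. The labels give neither the age of the mice nor whether an array was 1 bladder or a pool. The model is a single implanted line in bladders that keep their own urothelium, muscle and immune cells, so each array reads a mixture.

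Alpha1-oleate is a complex of oleate with a peptide of alpha-lactalbumin and belongs to a family of protein-lipid complexes studied because they kill tumour cells. A bladder that carries MB49 tumour holds dividing carcinoma cells and infiltrating myeloid and T cells beside the host wall. Uroplakins coat the surface of the differentiated urothelium, keratin 14 marks basal and carcinoma cells, and granzymes are the serine proteases that cytotoxic T and NK cells release into their targets. In such whole tissue, fewer cells of a type and less RNA per cell cannot be told apart.

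All values are log2 RMA intensities (RMA being the background correction, normalization and summary of a gene's probes used for these arrays), and 1 unit is a doubling. Array medians lay between 4.42 and 4.45 in experiment 1. By Mki67 and Krt14, both arrays of the pair fitted their labels as tumour bladders. Both also held liver transcripts, described below. Alb read 8.83 at 8.5 mM and 10.15 at 17 mM against 4.04 in the sham tumour. The proliferation marker Mki67 read 3.72 in the healthy bladder, 9.64 in the sham tumour, 8.49 at 8.5 mM and 8.05 at 17 mM, and Krt14, the basal keratin, read 4.28, 9.93, 9.07 and 8.63 in the same order. The bladder labelled healthy at 24 h after 17 mM went against its label, with Mki67 at 6.83 and Krt14 at 7.20 where the healthy PBS bladder of experiment 2 had 3.41 and 3.59. It enters no difference given here, and it adds no spread to the fit across arrays.

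Most genes were at nearly the same level in the 2 bladders. Of 11969 genes above the intensity filter, 11728 (98.0%) were within 1.5-fold, and over genes the levels had a Pearson correlation of 0.9924. At 17 mM, 25 genes were at least 2-fold lower (0.209% of the genes) and 11 were at least 2-fold higher (0.0919%). At 1.5-fold these counts were 165 lower (1.38%) and 76 higher (0.635%). By the same 2-fold count, 304 genes separated the 1.7 mM bladder from the sham tumour and 1046 separated 8.5 from 1.7 mM. Against the sham tumour, 1693 genes stood at least 2-fold apart at 8.5 mM and 2259 at 17 mM. These dose steps share arrays with one another and are given side by side only.

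**Figure D1:**
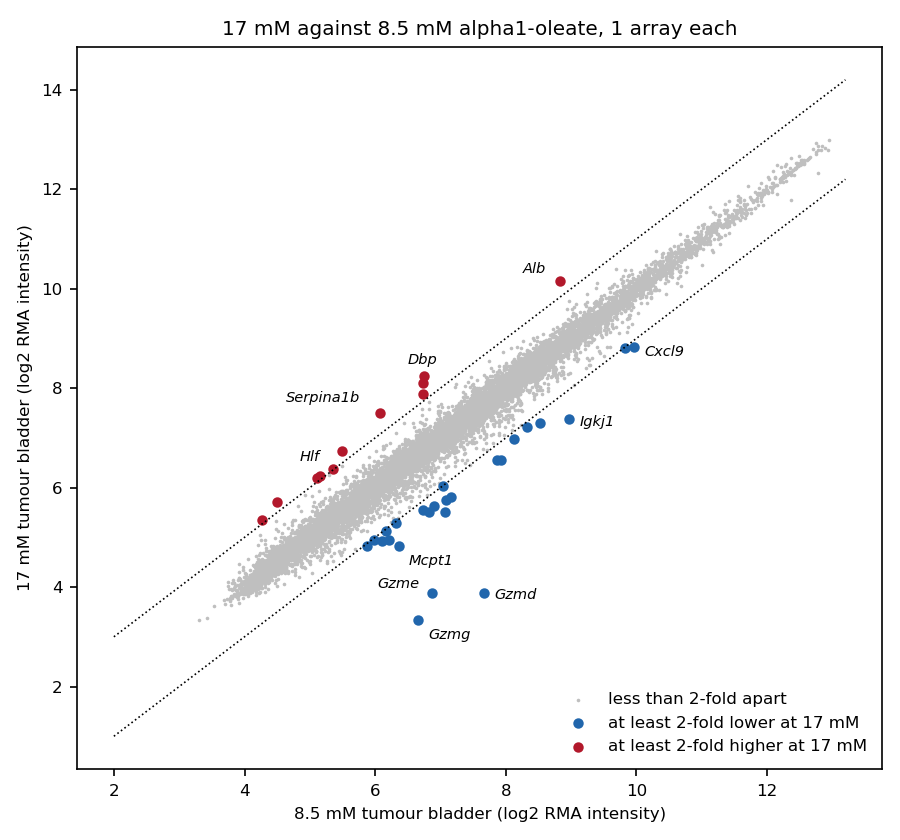
Each point is 1 of 11969 genes, with its log2 RMA intensity in the 8.5 mM tumour bladder on the x axis and in the 17 mM tumour bladder on the y axis; dotted lines mark a 2-fold difference. Of the coloured genes, 25 lie below the lower line (blue) and 11 above the upper line (red), with Gzmd, Gzme and Gzmg farthest from the rest.

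A yardstick for single arrays came from the healthy and sham tumour bladders, which were the only groups repeated. For each gene the tumour-minus-healthy difference of experiment 1 was set against that of experiment 2 and divided by the square root of 2, and its size is called the repeat spread below. Its median over genes was 0.127, against a median absolute difference of 0.11 between 17 and 8.5 mM. The SD over genes was 0.238 for the repeat difference and 0.222 for the dose difference. The repeat spread reached 2-fold in 46 genes and 1.5-fold in 373, more genes than the 36 and 241 that the dose step gave in both directions together. A limma fit over all 9 arrays with the experiment as a block called no gene between the doses (0 of 11969 genes, 0%), and 338 genes had an unadjusted p under 0.05, of which 149 were higher and 189 lower. That fit leaves 1 residual degree of freedom from the PBS arrays, and its smallest adjusted p was 0.99. Without the block, limma called 3 genes, Gzmd, Gzme and Gzmg, all lower at 17 mM, with a smallest adjusted p of 1.95e-05. That setting gave every gene the same spread. The values below are therefore differences between these 2 bladders. Beyond the repeat spread lay 46.1% of all genes, 21.9% lower and 24.2% higher at 17 mM, and counts of genes beyond it are read against those shares.

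The granzymes held the largest differences. All 7 granzyme genes above the filter were lower at 17 mM, 6 of them at least 2-fold, and each by more than its repeat spread. The list median was -1.37, where the median of all genes was 0.01. The filter takes the mean over all 9 arrays, so some members passed it through the tumour arrays where they were high. Gzmd, for example, read 2.33 to 2.96 in the healthy PBS, 7 d and 24 h bladders. These counts and the median are therefore partly set by the filter. Granzymes D, E, F and G belong to a mouse gene cluster, shared with granzymes B and C, that is active in cytotoxic lymphocytes. Gzmd read 2.42 in the healthy bladder, 7.87 in the sham tumour, 8.73 at 1.7 mM, 7.66 at 8.5 mM and 3.89 at 17 mM. The 8.5 mM bladder thus kept the sham tumour's level and the 17 mM bladder did not. The step from 8.5 to 17 mM was -3.77 (limma SE 0.51), a level 13.6-fold lower, with a repeat spread of 0.89.

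Gzmg followed the same course, at 2.77 in the healthy bladder, 7.20 in the sham tumour, 7.70 at 1.7 mM, 6.66 at 8.5 mM and 3.34 at 17 mM. Its step was -3.32 with a repeat spread of 1.07. Gzme read 3.06, 6.98, 7.48, 6.87 and 3.89 across the same 5 bladders, a step of -2.98 with a repeat spread of 0.81. For these 3 genes the 17 mM level lay under the filter level of 4.16, close to background, so the fold rests on a dim value. Second probe sets of Gzmd and Gzme gave -3.64 and -2.15. Limma's adjusted p with the block was 0.99 for each of the 3.

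Gzmf, another gene of the cluster, went from 6.90 at 8.5 mM to 5.63 at 17 mM, a step of -1.27 with a repeat spread of 0.23. Its healthy bladder read 5.35, so little was left above it. Gzma and Gzmb, the granzymes most widely expressed in T and NK cells, differed by -1.37 and -1.32 and at 17 mM were both still at 6.55, where their healthy bladders had 4.47 and 4.18. Gzmc, below the filter, read 5.64 at 8.5 mM and 3.82 at 17 mM, and Gzmk differed by -0.16. In experiment 2 the sham tumour read 6.52 for Gzmd, 5.23 for Gzme and 5.82 for Gzmg, and the 3 other bladders lay between 2.33 and 3.24. The experiments were normalized apart, so these levels are read only within experiment 2, where the sham tumour stood above all other bladders. In experiment 1 the 1.7 mM bladder was the highest for these 3 genes.

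The genes of the cluster are near copies, so that probe sets of one can take up signal of another and their separate values are uncertain. No probe or transcript sequence was compared, and promoter windows do not measure shared probe signal. The promoters of the cluster are shown because these genes differed together. They are from RefSeq (GRCm38.p6), 250 bases before to 50 after the gene start, 5′ to 3′ along the gene. Capitals mark a run of 20 bases that Gzmc, Gzmd, Gzme, Gzmf and Gzmg have in common and that the Gzmb window lacks.
Gzmd (chr14:56132544-56132843, minus strand): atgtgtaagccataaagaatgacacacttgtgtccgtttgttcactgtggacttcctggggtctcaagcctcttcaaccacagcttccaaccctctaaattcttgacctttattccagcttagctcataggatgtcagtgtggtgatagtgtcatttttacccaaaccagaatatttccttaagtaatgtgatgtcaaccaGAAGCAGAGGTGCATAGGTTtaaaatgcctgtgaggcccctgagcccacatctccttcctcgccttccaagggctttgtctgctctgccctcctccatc
Gzme (chr14:56120576-56120875, minus strand): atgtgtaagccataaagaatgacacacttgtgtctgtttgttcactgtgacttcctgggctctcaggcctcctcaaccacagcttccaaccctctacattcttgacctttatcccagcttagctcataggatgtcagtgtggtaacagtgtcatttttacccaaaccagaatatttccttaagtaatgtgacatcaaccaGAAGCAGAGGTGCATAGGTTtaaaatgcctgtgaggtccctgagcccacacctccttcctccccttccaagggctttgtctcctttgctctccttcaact
Gzmg (chr14:56159530-56159829, minus strand): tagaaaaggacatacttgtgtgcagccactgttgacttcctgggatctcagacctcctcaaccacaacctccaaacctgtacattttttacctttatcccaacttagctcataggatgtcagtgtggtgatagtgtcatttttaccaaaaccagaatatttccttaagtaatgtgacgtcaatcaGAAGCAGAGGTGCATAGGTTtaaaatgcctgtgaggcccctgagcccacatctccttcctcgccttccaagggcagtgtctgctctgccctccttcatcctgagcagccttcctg
Gzmf (chr14:56211358-56211657, minus strand): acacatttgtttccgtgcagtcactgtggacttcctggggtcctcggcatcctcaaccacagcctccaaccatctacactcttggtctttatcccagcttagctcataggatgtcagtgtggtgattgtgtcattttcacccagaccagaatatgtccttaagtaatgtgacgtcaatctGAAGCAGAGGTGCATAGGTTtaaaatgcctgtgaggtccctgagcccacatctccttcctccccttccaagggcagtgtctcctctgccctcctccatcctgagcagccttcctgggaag
Over aligned bases the Gzmd window was 94.0% identical to that of Gzme, 90.5% to that of Gzmg and 89.9% to that of Gzmf. Gzmf, whose window is about as close to the others, had the smallest step of the 4. The shared run is a description of these windows and was chosen after the values were seen.

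**Figure D2:**
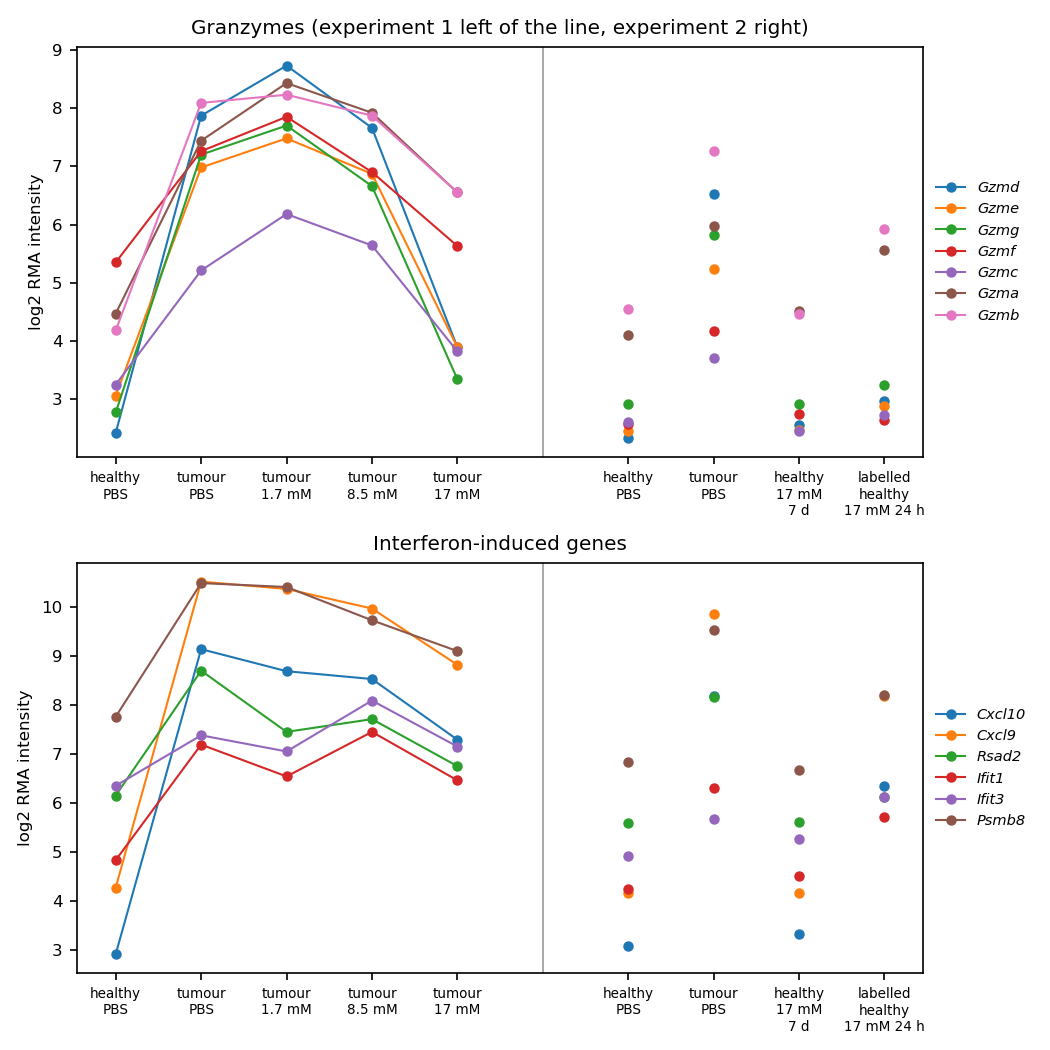
Log2 RMA intensity (y axis) of granzyme genes (top) and interferon-induced genes (bottom) in each of the 9 bladders (x axis), 1 point an array; lines join the arrays of experiment 1 and the vertical line separates the experiments, which were normalized apart. Gzmd, Gzme and Gzmg stay near the sham tumour up to 8.5 mM and sit between 3.34 and 3.89 at 17 mM, while Ifit1 and Ifit3 are highest at 8.5 mM.

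Other genes of T and NK cells were lower beside the granzymes. All 10 list members above the filter were lower, 7 beyond their repeat spread and 4 past 1.5-fold, with a list median of -0.48; 9 further measured members lay below the filter. The median level of the list was 4.51 in the healthy bladder, 6.04 in the sham tumour, 6.20 at 1.7 mM, 5.86 at 8.5 mM and 5.22 at 17 mM. Cd3g, a chain of the T cell receptor complex, read 6.22 in the sham tumour, 6.17 at 8.5 mM and 5.12 at 17 mM, a step of -1.05 with a repeat spread of 0.28. Nkg7, a cytotoxic granule protein, went from 6.35 to 5.38 and Cd3d from 6.67 to 5.83, while Cd3e differed by -0.33. The 6 granzyme differences past 2-fold were larger than that of any of these T and NK cell genes. How far the number of lymphocytes moved with the granzymes was not tested.

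Interferon-induced genes were the next group. All 21 above the filter were lower at 17 mM, 13 of them past 1.5-fold and 18 beyond their repeat spread, with a median of -0.65. Over the list the median level was 5.58 in the healthy bladder, 7.88 in the sham tumour, 7.45 at 1.7 mM, 7.67 at 8.5 mM and 7.06 at 17 mM. Gene by gene, the median difference from the sham tumour was -0.33 at 1.7 mM, -0.38 at 8.5 mM and -0.95 at 17 mM. Part of it was thus present at the lower doses. The 17 mM bladder was the lowest tumour bladder of experiment 1 for 19 of the 21. Cxcl10, a chemokine that draws activated T cells, read 2.91 in the healthy bladder, 9.14 in the sham tumour, 8.69 at 1.7 mM, 8.53 at 8.5 mM and 7.29 at 17 mM, and its step of -1.24 lay beside a repeat spread of 0.79. Cxcl9, which binds the same receptor, had 10.52, 10.37, 9.97 and 8.82 in the 4 tumour bladders.

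A few members of the list had another order. Ifit1, whose product binds viral RNA, read 4.83 in the healthy bladder, 7.19 in the sham tumour, 6.54 at 1.7 mM, 7.45 at 8.5 mM and 6.46 at 17 mM. The 8.5 mM bladder was thus the highest tumour, and the 17 mM bladder was level with 1.7 mM. Ifit3 was also highest at 8.5 mM, at 8.09 against 7.38 in the sham tumour, 7.05 at 1.7 mM and 7.15 at 17 mM. Rsad2, the antiviral enzyme viperin, read 8.70, 7.45, 7.71 and 6.75 from sham to 17 mM. For Ifit1 and Ifit3 the 8.5 mM bladder stood above the sham tumour, and for Rsad2 it did not. Ifit2, of the same family, was lower at each dose, with 8.12, 7.74, 7.65 and 7.18 in the 4 tumour bladders. Among other members, Oasl2 differed by -0.83, Cd274, which encodes the checkpoint ligand PD-L1, by -0.79, and the interferon-induced GTPase Igtp by -0.77, while Mx2 differed by -0.04.

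Windows around an interferon-stimulated response element (ISRE) are shown for the genes of this group that had the largest differences among those with a match. The motif searched was TTTCNNTTTC on both strands. It was found in 9 of the 16 list members with a RefSeq promoter and in 3.44% of 32851 promoters of the same length. A gene counts if any of its promoters matched, so the gene count and the promoter share are in unlike units. Capitals mark the match along the gene; in Cxcl10 and Igtp it lies on the opposite strand and reads as the reverse complement.
Cxcl10 (chr5:92349068-92349127, minus strand): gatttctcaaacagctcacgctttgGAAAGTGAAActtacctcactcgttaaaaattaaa
Ifit1 (chr19:34640760-34640819, plus strand): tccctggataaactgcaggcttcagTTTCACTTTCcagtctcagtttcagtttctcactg
Rsad2 (chr12:26456538-26456597, minus strand): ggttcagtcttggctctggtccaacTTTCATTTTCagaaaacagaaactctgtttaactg
Ifit3 (chr19:34583348-34583407, plus strand): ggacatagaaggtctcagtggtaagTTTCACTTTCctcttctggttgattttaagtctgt
Igtp (chr11:58199497-58199556, plus strand): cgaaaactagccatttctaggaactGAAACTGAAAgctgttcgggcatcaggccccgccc
A match is a description of the sequence and not a measured site. Stat2, with a match, differed by -0.26, so members with a match covered a range from -1.24 to -0.26.

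Antigen presentation was lower as well. All 10 class I genes above the filter were lower, each beyond its repeat spread, which was small for this list (median 0.05). The median was -0.33, and the 3 past 1.5-fold were the inducible proteasome subunits Psmb9 (-0.71), Psmb10 (-0.64) and Psmb8 (-0.63). The classical molecules H2-K1 and H2-D1 differed by -0.25 and -0.23. Subunits of the constitutive proteasome were closer to 0, with a median of -0.10 over 20 genes. Of 3 Psmb9 probe sets one gave -0.01, so that its value depends on the probe set. Among 11 dendritic cell and class II genes 10 were lower (median -0.45), with Itgax at -0.67, Batf3, a factor of cross-presenting dendritic cells, at -0.64 and the class II chain H2-Aa at -0.56.

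Macrophage genes were mixed. Of 22 members, 17 were lower and 5 higher, with a median of -0.27. Arg1, the arginine-degrading enzyme of wound and tumour macrophages, read 3.61 in the healthy bladder, 8.64 in the sham tumour, 8.03 at 1.7 mM, 8.13 at 8.5 mM and 6.98 at 17 mM, a step of -1.15 with a repeat spread of 0.20. Of 3 genes of resident tissue macrophages, Cd163 was 0.44 higher and Folr2 and Cd209f were lower, at -0.26 and -0.24, and the general macrophage marker Cd68 went from 8.53 to 8.28. The complement chains C1qa and C1qb both differed by -0.43.

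Neutrophil genes were split, with 8 of 12 lower and 4 higher and a median of -0.30. Their median difference from the sham tumour was -1.08 at 8.5 mM and -1.52 at 17 mM. S100a8, an abundant neutrophil protein, read 10.14 in the sham tumour, 8.17 at 1.7 mM, 7.90 at 8.5 mM and 8.01 at 17 mM. Lcn2, the iron-scavenging lipocalin, read 8.09, 8.33, 3.91 and 4.18 in the same order. For both, the difference from the sham tumour was already present at 8.5 mM and was no larger at 17 mM. The chemoattractant receptor Fpr2 and the lectin Clec4e were lower, at -0.59 and -0.62, although the repeat spread of Fpr2 was 1.23 and a second Clec4e probe set gave -0.04. Among inflammatory cytokines 16 of 17 were lower with a median of -0.44. Of the 17, 6 were lower beyond their repeat spread, where 21.9% of all genes were. Ccl3, a leukocyte chemokine, went from 6.24 to 5.31, Il1rn, the IL-1 receptor antagonist, from 6.98 to 6.10 and Il1b from 8.56 to 7.88, the last with a repeat spread of 1.03, larger than its difference.

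Several single genes among the 25 were in none of the lists described so far. Car9, the carbonic anhydrase induced by hypoxia, read 4.94 in the healthy bladder, 7.24 in the sham tumour, 6.29 at 1.7 mM, 6.10 at 8.5 mM and 4.92 at 17 mM, so the 17 mM bladder was at the healthy level. Its step of -1.18 compares with a repeat spread of 0.13. The wider hypoxia and glycolysis list was lower in 20 of 22 members, with a median of -0.22 and only Car9 past 1.5-fold. Mcpt1 and Mcpt2, proteases of mucosal mast cells, differed by -1.53 and -1.57, with repeat spreads of 1.34 and 1.18. The 8.5 mM bladder was the highest tumour for both, at 6.36 and 7.07, and neither was above 3.73 in the sham tumour of experiment 2. General mast cell genes did not share that size, with Cpa3 at -0.54 within its repeat spread, and a list median of -0.15.

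The immunoglobulin segment Igkj1 had its highest value at 8.5 mM too, at 8.97 against 8.16 in the sham tumour and 7.37 at 17 mM. Alas2, the enzyme that starts haem synthesis in red cell precursors, read 8.24 in the sham tumour, 6.25 at 1.7 mM, 7.16 at 8.5 mM and 5.82 at 17 mM. Its order did not follow the dose. The other erythroid genes above the filter, Hba-a1 and Slc4a1, differed by -0.45 and -0.41, the latter within its repeat spread. Krt16, a keratin of stressed and squamous epithelium, went from 5.98 to 4.95 with a repeat spread of 0.96. Ubd, an interferon-inducible ubiquitin-like protein that the interferon list does not hold, differed by -1.32 and Calhm6 by -1.34.

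The proliferation genes differed by little and in one direction. All 30 mitosis genes and all 31 DNA replication genes were lower at 17 mM, with medians of -0.43 and -0.31. The median mitosis level was 3.97 in the healthy bladder, 8.47 in the sham tumour, 8.36 at 1.7 mM, 7.18 at 8.5 mM and 6.75 at 17 mM. The 17 mM bladder was thus the lowest tumour array for all 30, and it remained far above the healthy bladder. Of the 31 replication genes 21 were lower beyond their repeat spread, and of the 30 mitosis genes 14. Of all genes, 21.9% were lower beyond it and 46.1% differed beyond it in either direction. Birc5, the mitotic protein survivin, went from 8.95 to 8.29, a step of -0.66 with a repeat spread of 0.39. Fen1, a flap endonuclease of replication, and Ccne2, cyclin E2, both differed by -0.63, the first with a repeat spread of 0.70. Mcm5, a subunit of the replicative helicase, differed by -0.68, with a second probe set at 0.12.

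Matrix proteases of the tumour were lower in part. Of 14 protease and inhibitor genes 9 were lower and 5 higher, with a median of -0.25. The collagenase gene Mmp13 read 3.77 in the healthy bladder, 10.05 in the sham tumour, 8.66 at 1.7 mM, 8.65 at 8.5 mM and 7.94 at 17 mM. Its 1.7 and 8.5 mM bladders were level with each other. Mmp12, the macrophage elastase, and Adam8 differed by -0.83 and -0.78, the first with a repeat spread of 1.85, larger than its difference.

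On the other side, urothelial differentiation and smooth muscle genes of the bladder wall were slightly higher in the 17 mM array. Of 24 urothelial differentiation genes 23 were higher and none was lower, but none passed 1.5-fold. Only 8 were higher beyond their repeat spread. Of all genes, 24.2% were higher beyond it and 46.1% differed beyond it in either direction. The median level was 11.02 in the healthy bladder, 7.34 in the sham tumour, 8.13 at 1.7 mM, 9.87 at 8.5 mM and 10.16 at 17 mM, so most of the distance to the sham tumour was there at 8.5 mM. Upk2, a uroplakin, read 10.40 at 8.5 mM and 10.56 at 17 mM, and the largest differences were those of the urothelial factors Gata3 (0.46) and Grhl3 (0.42). Krt5, a basal keratin, differed by 0.15, with a repeat spread of 0.64.

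Smooth muscle genes had the same shape. All 18 contractile genes were higher and none past 1.5-fold, with a median of 0.28 beside a median repeat spread of 0.33. Of the 18, 8 were higher beyond their repeat spread, where 24.2% of all genes were. Synm, an intermediate filament protein, went from 11.12 to 11.65, within its repeat spread of 0.58, and Casq2, a calcium store protein, from 8.01 to 8.51. Acta2, smooth muscle actin, read 12.75 and 12.92 and was higher than in the healthy bladder (12.46) at both doses. Pcp4, a calmodulin-binding protein abundant in bladder muscle, read 5.05 in the sham tumour, 10.78 at 8.5 mM and 11.05 at 17 mM, with a repeat spread of 1.22. Fibroblast and collagen genes had a median of 0.03 over 24 genes and Col1a1 read 10.99 and 11.10 (repeat spread 0.68), while 12 of 16 endothelial genes were lower (median -0.15). Xist, the RNA of the inactive X chromosome that female host cells carry, read 9.15 in the sham tumour, 9.95 at 8.5 mM and 10.21 at 17 mM, and the other measured genes of that list, all Y-linked, lay below the filter.

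Liver genes took most of the 11 places among the genes at least 2-fold higher. All 13 liver genes above the filter were higher at 17 mM, 11 past 1.5-fold and 6 past 2-fold, with a median of 0.96. The filter takes the mean over all 9 arrays, so some members passed it only through the arrays where they were high. Cyp3a11, for example, read 3.36 to 3.67 outside the 8.5 mM, 17 mM and 24 h bladders. These counts and the median are therefore partly set by the filter. Alb, the plasma protein albumin made by hepatocytes, read 4.57 in the healthy bladder, 4.04 in the sham tumour, 3.87 at 1.7 mM, 8.83 at 8.5 mM and 10.15 at 17 mM. Only the 8.5 and 17 mM bladders of experiment 1 were high. In experiment 2 Alb read 3.85 in the healthy bladder, 3.78 in the sham tumour, 3.52 in the bladder at 7 d and 8.80 in the bladder labelled healthy at 24 h. Its step between the doses was 1.32 with a repeat spread of 0.33.

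Serpina1b and Serpina1c, which encode alpha-1-antitrypsin, had the same pattern. Serpina1c read 3.99 in the healthy bladder, 3.70 in the sham tumour, 3.54 at 1.7 mM, 6.73 at 8.5 mM and 8.11 at 17 mM. As near copies, these genes may share probe signal. Apoa2, an apolipoprotein of high-density lipoprotein, went from 6.74 to 7.89, Cyp3a11, a hepatic cytochrome P450, from 5.49 to 6.74 and Cps1, the first enzyme of the urea cycle, from 5.11 to 6.19. Hpx, the haem-binding plasma protein hemopexin, went from 4.49 to 5.72. Of the 6 measured liver genes below the filter, 5 were higher too, led by Serpina1a at 1.87 and Fabp1 at 1.49, and Apob differed by -0.06.

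Some genes of the list are also expressed in the healthy bladder. Trf, transferrin, and the cytochrome P450 gene Cyp2e1 read 11.07 and 8.95 in the healthy bladder and differed by 0.14 and 0.25, both within their repeat spreads. Ttr, transthyretin, and Rbp4, the retinol carrier of plasma, read 8.91 and 6.77 there. Ttr went from 7.56 at 8.5 mM to 8.16 at 17 mM and Rbp4 from 8.17 to 8.82, both past 1.5-fold. The median level of the list was 4.57 in the healthy bladder, 4.37 in the sham tumour, 4.45 at 1.7 mM, 6.73 at 8.5 mM and 7.89 at 17 mM. Kidney genes, the other distant tissue listed, had a median of 0.03 over 7 genes. The source of the liver transcripts was not tested.

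Among genes above the filter the largest positive difference was that of Dbp, a transcription factor that cycles with the circadian clock. It read 8.62 in the healthy bladder, 4.63 in the sham tumour, 5.98 at 1.7 mM, 6.75 at 8.5 mM and 8.24 at 17 mM, higher at each dose. Its step was 1.49 (limma SE 0.16, adjusted p 0.99 with the block), with a repeat spread of 0.19. Its relatives Tef and Hlf, of the same PAR bZIP family, were 0.79 and 1.02 higher, and the clock repressors Nr1d2 and Per3 were 0.72 and 0.65 higher. Nr1d2 went from 9.39 to 10.11, with 10.17 in the healthy bladder and 8.12 in the sham tumour.

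Arntl, which encodes the clock activator BMAL1, had the opposite order. It read 5.04 in the healthy bladder, 7.26 in the sham tumour, 6.92 at 1.7 mM, 6.42 at 8.5 mM and 5.86 at 17 mM, lower at each dose. Over the 14 clock genes above the filter, 10 were higher and 4 lower, 12 beyond their repeat spread, with a median of 0.30. Cry1 and Bhlhe40 differed by -0.14 and -0.09. Second probe sets of Hlf, Tef and Nr1d2 gave 0.35, 0.20 and 0.28, smaller in each case.

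A pair of promoter windows is shown because DBP, TEF and HLF bind D-box elements. The letters TTATGTAA were searched on both strands. They were found for 1 of 13 clock genes (Per3), 1 of 10 liver genes (Alb) and in 0.938% of all promoters. A gene counts if any of its promoters matched, so gene counts and promoter shares are in unlike units. Capitals mark the match.
Per3 (chr4:151044838-151044895, minus strand): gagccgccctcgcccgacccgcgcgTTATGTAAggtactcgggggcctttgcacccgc
Alb (chr5:90460622-90460679, plus strand): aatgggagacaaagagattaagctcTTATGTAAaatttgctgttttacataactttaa
The E-box bound by the clock activators, CACGTG, was found for 5 of 13 clock genes, among them Tef, and in 7.15% of all promoters. Neither count says which factor acts on a gene.

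**Figure D3:**
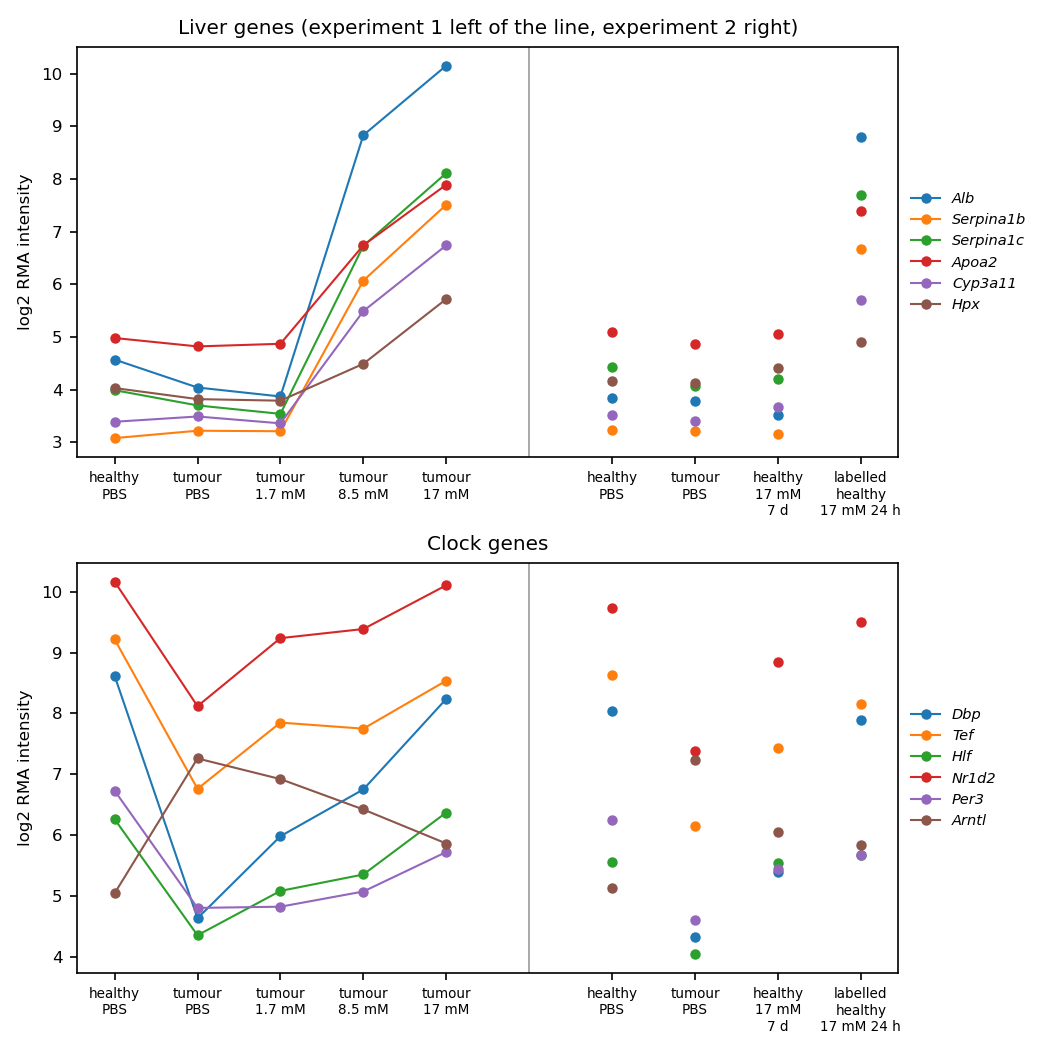
Log2 RMA intensity (y axis) of liver genes (top) and clock genes (bottom) in each of the 9 bladders (x axis), 1 point an array; lines join the arrays of experiment 1 and the vertical line separates the experiments. Alb is near 4 in the healthy, sham and 1.7 mM bladders and reads 8.83 and 10.15 at 8.5 and 17 mM, while Dbp is higher at each dose and Arntl lower.

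Signalling and metabolic genes gave smaller differences. Gli2 and Ptch1, an effector and the receptor of hedgehog signalling, were 0.86 and 0.60 higher, with second probe sets at 0.03 and -0.05. The WNT and hedgehog list was higher in 12 of 14 members (median 0.25). Pdk4, a kinase that turns metabolism from glucose to fat, read 3.97 in the sham tumour, 7.11 at 1.7 mM, 6.68 at 8.5 mM and 7.31 at 17 mM, so all treated bladders were high. Of 15 sterol synthesis genes 14 were higher (median 0.21), with Lss at 0.51. Nqo1 and Hmox1, both enzymes induced by NRF2, went opposite ways, at 0.64 and -0.67. The skeletal muscle genes Tnnt3 and Myh2 were 0.81 and 0.80 higher, against a median of 0.12 for their list. Ribosomal protein and oxidative phosphorylation genes had medians of 0.00 and -0.02.

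**Figure D4:**
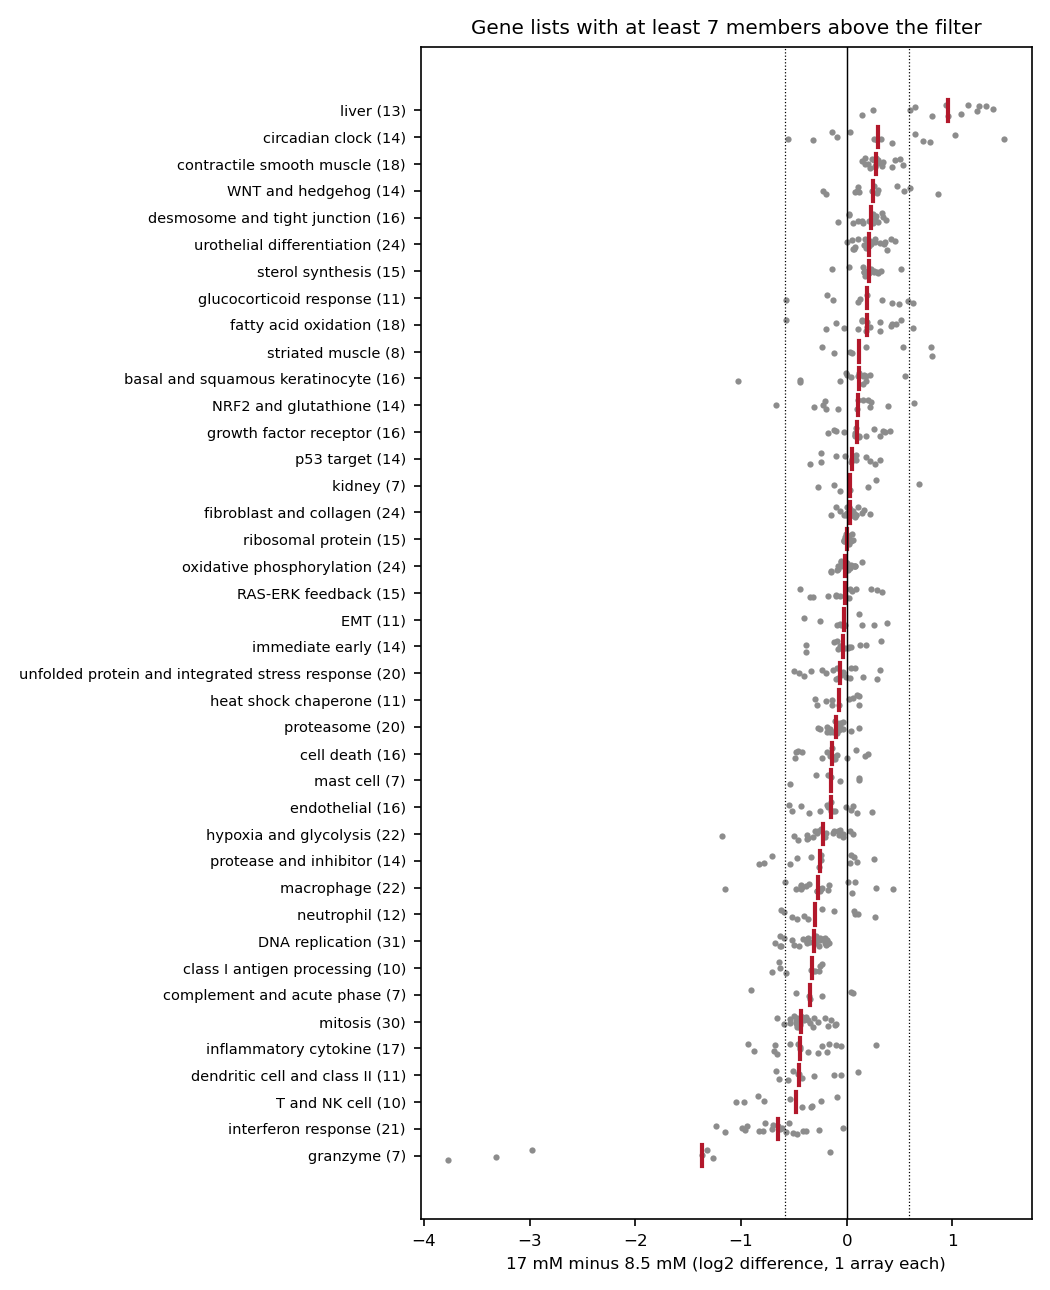
Each grey point is 1 gene above the filter, placed by its 17 mM minus 8.5 mM log2 difference (x axis), in gene lists with at least 7 such members (y axis, number of members in parentheses); red bars are list medians and dotted lines mark 1.5-fold. Granzyme and interferon lists lie farthest to the left (medians -1.37 and -0.65) and liver farthest to the right (0.96).

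The direction of these differences was then set against what the tumour itself does in arrays that the comparison does not use. In experiment 2 the sham tumour was at least 2-fold above the healthy bladder for 1686 genes (14.1%) and at least 2-fold below it for 1809 (15.1%). Of the genes above, 85.4% were lower at 17 mM than at 8.5 mM, with a median difference of -0.21 and quartiles of -0.37 and -0.08. Of the genes below, 89.7% were higher at 17 mM, with a median of 0.20 and quartiles of 0.11 and 0.31. The 8474 genes between had a median of 0.00. Over all 11969 genes the dose difference and the experiment 2 tumour difference had a Pearson correlation of -0.62 and a Spearman correlation of -0.61. They share no array, and genes are not independent replicates.

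Of the 165 genes at least 1.5-fold lower at 17 mM, 137 were among the genes 2-fold above healthy in experiment 2 and 2 among those 2-fold below. Of the 76 higher genes, 55 were among those below and 1 among those above. Of the 13 liver genes above the filter, 4 were among the genes 2-fold below healthy (Ttr, Rbp4, Trf and Cyp2e1) and the other 9 were in neither set, Alb among them. The median step of the tumour-high genes from the sham tumour was -0.19 at 1.7 mM, -0.72 at 8.5 mM and -0.93 at 17 mM, and that of the tumour-low genes 0.37, 1.12 and 1.34. The dose of 8.5 mM therefore already held most of the median difference from the sham tumour. A share of the distance between the sham tumour and the healthy bladder of experiment 1 was taken for the 1463 tumour-high and 1588 tumour-low genes for which those arrays were at least 2-fold apart. Its median was 9.6%, 39.2% and 51.4% over the tumour-high genes and 20.7%, 62.0% and 73.2% over the tumour-low genes. These shares use the same sham and healthy arrays at each dose.

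**Figure D5:**
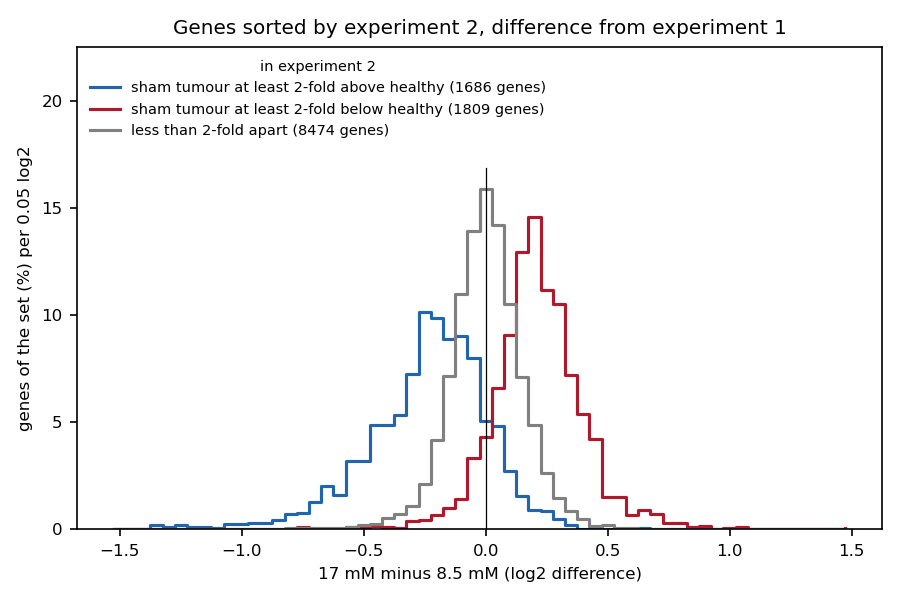
Distribution of the 17 mM minus 8.5 mM log2 difference (x axis) as the percent of each gene set per 0.05 log2 (y axis), for genes sorted by the tumour-minus-healthy difference of experiment 2, whose arrays enter no dose difference. Genes higher in the tumour (blue, 1686) centre on -0.21, genes lower in it (red, 1809) on 0.20 and the rest (grey, 8474) on 0.00; Gzmd, Gzme, Gzmg, Igkj1, Mcpt1 and Mcpt2 lie beyond the left edge.

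Most of the genes that differed were at the end of the dose order, which their choice favours. Of the 165 lower genes the 17 mM bladder was the lowest tumour array of experiment 1 for 158, and 93 were lower at each successive dose from the sham tumour on. For 19 the 8.5 mM bladder was the highest of the 4. Of the 76 higher genes 74 were highest at 17 mM, and 51 were higher at each dose. Beyond the repeat spread lay 141 of the 165 and 72 of the 76, where all genes had a share of 46.1%. Choosing genes by the size of their difference favours these counts too. At the 2-fold edge stood H2-Q5, a class I gene, at -1.01 and Ifit1 at -0.99 just outside it, and on the upper side Hlf at 1.02 and Fgg, a fibrinogen chain, at 0.96.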

How the data were processed

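The deposited values are log2 RMA intensities of 45077 probe sets on 9 arrays, which the authors, per the submitters' processing notes, made by RMA with Transcriptome Analysis Console 4.0.1.36. As the labels describe, 100 ng of RNA from frozen bladder was amplified with a 3' IVT kit. The genome build behind the probe annotation is not given in the sources used here, and promoter windows were taken from RefSeq (GRCm38.p6). Values of both experiments had been normalized apart, so differences were taken within experiment 1. The number of arrays limits the precision.

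Of the probe sets, 28898 named 1 gene, 551 several and 15588 none, and 40 were controls. The brightest probe set of a gene was used, and genes in the lowest 30% (mean below 4.16) were left out, which kept 11969 of 17097. Differences were counted past 2-fold and 1.5-fold. Limma 3.58.1 in R 4.3.3 (lmFit, eBayes, Benjamini-Hochberg adjusted p under 0.05) fitted 7 group means with the experiment as a block. The labels give the experiment number, and deviations of same-numbered healthy and sham tumour arrays from their group means correlated at 0.647 over genes. Single arrays were assumed to vary as the PBS groups do, and since nothing says that arrays are separate animals, a p-value covers only the spread among these samples, which may be technical. The fit was tested on simulated data.

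The comparison, the gene lists and the alternatives were chosen with earlier results of these data known. Genes were named by a rule: the 15 highest and 15 lowest differences with an official symbol, up to 4 members of each list past 1.5-fold in each direction (up to 2 where none passed), and 15 genes throughout. Other list members and single genes were named, and motifs chosen, after their values were seen. Alternatives were other scalings, filters, probe set rules, fold thresholds and fits.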

Additional observations from a re-analysis of the deposited data

How the results depend on the processing

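The number of genes at least 2-fold higher was 11, and it was 22 with no filter, 3 with the lowest 50% left out and 76 at 1.5-fold. The number at least 2-fold lower was 25, and it was 11 with the lowest 50% left out and 165 at 1.5-fold. That stricter filter gave 45 genes higher and 104 lower at 1.5-fold. It removes genes by construction. Each of the 3 other scalings kept all 11 and all 25 genes, and the mean over probe sets kept 9 and 23. Limma called 0 genes with the experiment as a block under all other settings that had residual degrees of freedom, and without the replicate block it called 3, also with any PBS array left out (3 to 3), with adjusted p from 2.37e-06 to 0.000112 for its smallest. With the block, leaving out a PBS array leaves no residual degree of freedom. The liver median was 0.62 with the lowest 50% left out, the erythroid median -0.90 there and -1.03 with the mean over probe sets, and that of the mast cell list turned from -0.15 to 0.12 with the lowest 50% left out. The median of the list of Xist and Y-linked genes turned from 0.26 to -0.10 with no filter, which adds the Y-linked genes. Of the named genes 12 moved with the mean over probe sets, among them Gzme (-2.56), Hlf (0.68), Tef (0.50), Gli2 (0.44), Ttll7 (0.41), Psmb9 (-0.47) and Bak1 (-0.20). None of these 12 changed direction. For the other named genes a change of direction was counted only where the main difference was at least 1.5-fold. The causes of the other changes were not tested. One array a side limits every difference.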

Other observations

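The complement and acute phase list, not described above, was lower in 5 of 7 members (median -0.35). Saa3, an acute phase protein of inflamed tissue, went from 7.80 to 6.89, within its repeat spread of 1.04, and Cfb, complement factor B, from 8.11 to 7.63. Stress lists had medians closer to 0. Of 20 unfolded protein and integrated stress response genes 14 were lower (median -0.06), with the chaperone cofactor Sdf2l1 lowest at -0.50 and Psat1, an enzyme of serine synthesis, at -0.45. Of 16 cell death genes 12 were lower (median -0.14), with Bak1, a pore-forming protein of the mitochondrial outer membrane, at -0.49 (0.08 by its second probe set) and the necroptosis effector Mlkl at -0.48. Neither list had a member past 1.5-fold. Hbegf and Ereg, ligands of the EGF receptor, differed by -0.44 and -0.35, while their list of RAS-ERK feedback genes was split, with 8 lower and 7 higher. Among p53 targets Cdkn1a, which halts the cell cycle, was lower (-0.35) and Trp53inp1 higher (0.31). Fst, which encodes the activin antagonist follistatin, read 8.37 in the sham tumour, 7.65 at 8.5 mM and 6.77 at 17 mM. The gluconeogenic enzyme gene Fbp1 read 3.89, 6.97 and 7.65 in the same order.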
